A study of Homo sapiens with 2 samples.

Results

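The genes described here are YAP1, WWTR1 (which encodes TAZ), the 4 TEAD transcription factor genes, and the 4 classical target genes CTGF, CYR61, ANKRD1 and AMOTL2. They were chosen by symbol, as effectors and targets of the Hippo pathway, and not by a cut on their values, though earlier results of these data were known. All 10 symbols were found once in each deposited table, among 51640 symbols in all. RNA of HCT116, an epithelial line derived from a human colon cancer, was sequenced from both ends in 2 libraries, PF and PJ, which the submitters call biological replicates. The labels do not say what the letters stand for. Both were unmodified cells kept in DMEM that held fetal bovine serum (10%) and penicillin/streptomycin (1%), and were taken at 80% confluence, with no treatment named. A single line grown as a monolayer is the whole model, and the normal colon libraries named by the design text were not analysed here.

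The Hippo pathway is a kinase cascade that restrains growth. The MST kinases (genes STK4 and STK3) activate the LATS kinases, which phosphorylate the coactivators YAP and TAZ and keep them out of the nucleus. Unphosphorylated YAP and TAZ enter the nucleus, bind TEAD factors, which supply the contact with DNA, and switch on genes for growth, matrix and cell shape. Crowding of cells and a soft substrate promote phosphorylation, while serum and spreading oppose it, so confluence and serum are part of the conditions of any such measurement. In the intestine YAP and TAZ are known for their part in repair after injury. Transcript levels do not show phosphorylation or location of the proteins.

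TEAD factors recognise the sequence GGAATG, which reads CATTCC on the opposite strand, and the promoters in which it occurred are shown first because the expression values of their genes differed widely. RefSeq promoter windows (GRCh38.p14, 250 bases before to 50 after a transcription start) were matched for 7 of the 10 genes, in 10 windows, since some genes have 2 starts. TEAD1, TEAD4 and CYR61 had no window in the table used. The motif occurred on either strand in 4 of the 10 windows, belonging to CTGF, ANKRD1, AMOTL2 and YAP1, against 14.0% of all 35116 windows of this length. In the sequences below the bases before the start are written 5′ to 3′ on the strand of the gene, with the motif in capitals. CTGF (chr6:131951373-131951622, minus strand) and ANKRD1 (chr10:90921088-90921337, minus strand) are given over all 250 bases before the start. YAP1 (chr11:102110258-102110317, plus strand) and the second start of AMOTL2 (chr3:134374484-134374543, minus strand) are given over 60 bases around the motif.
CTGF: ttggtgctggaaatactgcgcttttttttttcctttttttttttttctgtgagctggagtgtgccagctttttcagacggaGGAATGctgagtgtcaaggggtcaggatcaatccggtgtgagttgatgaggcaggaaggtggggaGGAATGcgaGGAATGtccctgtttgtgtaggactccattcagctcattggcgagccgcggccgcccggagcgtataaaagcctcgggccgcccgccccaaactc
ANKRD1: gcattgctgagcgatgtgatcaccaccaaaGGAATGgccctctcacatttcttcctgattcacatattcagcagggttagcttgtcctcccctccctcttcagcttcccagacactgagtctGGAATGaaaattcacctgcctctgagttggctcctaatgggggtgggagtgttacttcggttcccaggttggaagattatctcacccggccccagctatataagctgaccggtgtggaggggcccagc
AMOTL2: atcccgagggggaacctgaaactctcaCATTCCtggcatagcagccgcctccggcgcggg
YAP1: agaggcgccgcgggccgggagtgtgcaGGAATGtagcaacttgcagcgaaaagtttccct

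The CTGF window held 3 copies, beginning 169, 104 and 95 bases before the start. Only 45 of the 35116 windows, or 0.128%, held 3 or more. ANKRD1 held 2 copies, at 220 and 128 bases before the start, and 1.37% of all windows held 2 or more. AMOTL2 and YAP1 held 1 copy each, at 69 and 162 bases before the start. The AP-1 motif TGANTCA was found once, in ANKRD1, 195 bases before the start and not overlapping a TEAD match; 7.71% of all windows held it. The CArG box, the element of serum response factor, was found in none of the 10 windows and in 1.29% of all windows. The targets were picked as known targets of YAP, TAZ and TEAD, so their motif counts against all windows are no independent test. These matches describe letters in a window and show no binding, and the windows of WWTR1, TEAD2 and TEAD3 hold no TEAD match only within these bases.

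**Figure D1:**
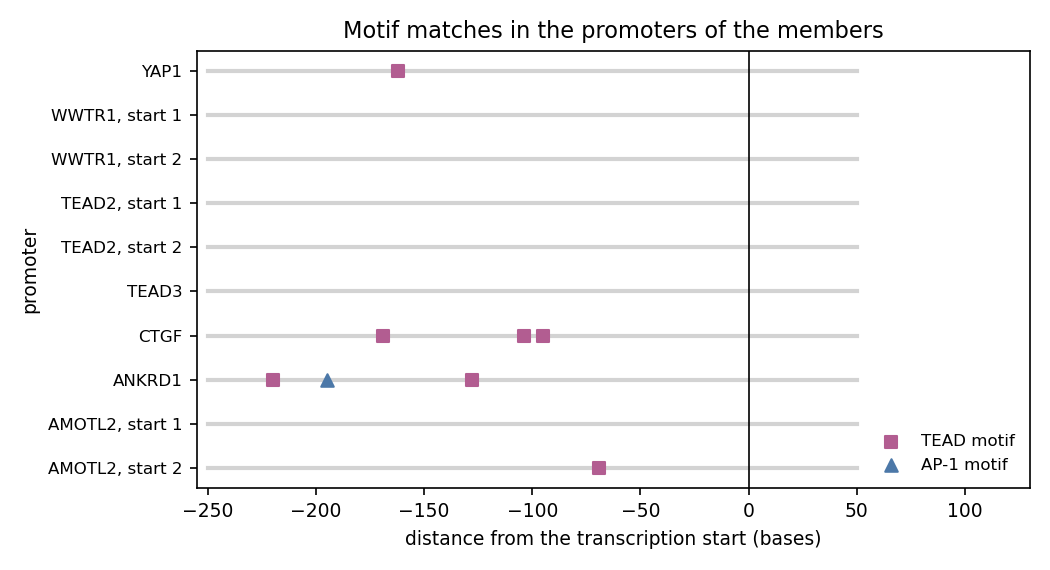
Position of TEAD motif matches (squares) and AP-1 motif matches (triangle) relative to the transcription start, in bases, in the 10 promoter windows of the 7 genes matched; grey lines show the window searched. CTGF carries 3 TEAD matches, ANKRD1 carries 2 and an AP-1 match, and YAP1 and the second start of AMOTL2 carry 1 each.

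In both libraries 9 of the 10 genes reached 1 FPKM. This unit, fragments relative to transcript length and to the fragments of the library, corrects for length, so that genes can be set beside each other. This threshold was passed by 27.9% of all symbols with a value in both tables and by 57.3% of protein-coding symbols. ANKRD1 was the exception. The level of a typical expressed gene gives the scale: over the 10907 protein-coding symbols that passed, the median was 13.8 FPKM in PF against 16.4 in PJ. Every estimate of the 10 genes lay within its own deposited 95% bounds in both libraries. In bulk RNA a lower level can come from fewer cells with the transcript or from less RNA per cell, and these cannot be told apart.

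YAP1 (ENSG00000137693.9; hg19 chromosome 11, 101981192 to 102104154), the main coactivator gene, was at 33.4 FPKM (bounds 31.9 to 35.1) in PF against 13.9 in PJ (13.2 to 14.7). It was thus lower in PJ and the bounds did not meet. The level in PF was 2.40 times that in PJ, with 2.17 and 2.66 as the extremes that the bounds allow. Among expressed protein-coding symbols YAP1 stood above 74.4% in PF and above 45.1% in PJ.

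WWTR1 (ENSG00000018408.10; chromosome 3, 149235022 to 149454501), the TAZ gene, was at 9.05 FPKM (8.04 to 9.77) in PF against 10.9 in PJ (10.0 to 11.7). Its bounds were just apart as deposited and its PJ to PF ratio was 1.21. YAP1 transcripts therefore exceeded those of WWTR1 3.69 times in PF and 1.28 times in PJ. TAZ made up 21.3% of the summed FPKM of the pair in PF, with 18.7 to 23.5% as the extremes from the bounds, and 43.9% in PJ, with 40.6 to 47.0%. These ranges do not overlap, and the summed level of the pair was 42.5 FPKM in PF against 24.8 in PJ.

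All 4 TEAD genes were transcribed in both libraries, and TEAD4 was the highest in each. TEAD4 (ENSG00000197905.4; chromosome 12, 3068496 to 3149839) was at 19.8 FPKM (18.5 to 21.2) in PF against 34.1 in PJ (32.2 to 36.1). The PJ level was 1.72 times the PF level, between 1.52 and 1.95 from the bounds, and so under 2-fold. TEAD2 (ENSG00000074219.9; chromosome 19, 49843852 to 49865714) had the opposite order, at 16.4 FPKM (14.5 to 19.7) in PF against 10.9 in PJ (8.42 to 14.0). Its bounds were the widest of the family relative to the estimate, and they were just apart.

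TEAD1 (ENSG00000187079.10; chromosome 11, 12695969 to 12966298) was at 9.65 FPKM (8.82 to 10.2) in PF against 11.1 in PJ (9.48 to 11.4), with overlapping bounds. TEAD3 (ENSG00000007866.14; chromosome 6, 35441374 to 35464853), the lowest of the family, was at 6.16 FPKM (5.66 to 6.67) in PF against 8.62 in PJ (7.99 to 9.27). In PF the family was shared mainly between TEAD4, with 38.1% of its summed FPKM, and TEAD2, with 31.5%, and the bounds allow 33.6 to 42.2% and 27.6 to 37.4%, ranges that overlap. In PJ TEAD4 alone held 52.6% (48.2 to 58.2%), and TEAD1, TEAD2 and TEAD3 held 17.2, 16.9 and 13.3%. The summed level of the 4 genes was 52.0 FPKM in PF against 64.7 in PJ.

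**Figure D2:**
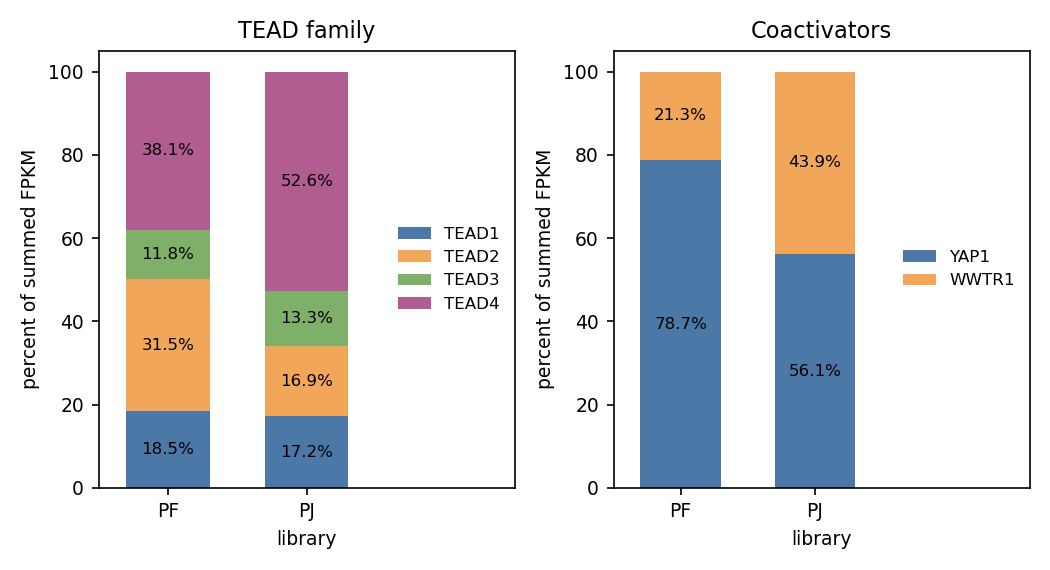
Stacked bars give each gene's percent of the summed FPKM of its family in each library: left, TEAD1 to TEAD4; right, YAP1 and WWTR1. TEAD4 makes up 38.1% in PF and 52.6% in PJ, and WWTR1 21.3% and 43.9% of its pair.

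The 4 classical targets covered the range from the highest to the lowest mean level of the 10 genes. CYR61 (ENSG00000142871.11; chromosome 1, 86046444 to 86049645) and CTGF (ENSG00000118523.5; chromosome 6, 132269316 to 132272513) encode related secreted matrix proteins of the CCN family and are the most used readouts of YAP and TAZ. CYR61 was at 15.9 FPKM (14.9 to 16.9) in PF against 48.7 in PJ (47.2 to 50.9), a ratio of 3.06 with extremes of 2.79 and 3.41. CTGF was at 1.45 FPKM (1.20 to 1.70) in PF against 8.06 in PJ (7.42 to 8.71), a ratio of 5.55 with extremes of 4.37 and 7.23. Both were higher in PJ, the library with less YAP1, and the bounds of both were well apart. CYR61 exceeded CTGF 11.0 times in PF and 6.03 times in PJ. Relative to expressed protein-coding symbols, CTGF stood above 2.64% in PF and above 29.03% in PJ, and CYR61 above 54.4% and above 78.8%.

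AMOTL2 (ENSG00000114019.10; chromosome 3, 134074716 to 134094321), which encodes an angiomotin that binds YAP in the cytoplasm and is itself a target, was at 22.6 FPKM (21.8 to 23.9) in PF against 21.0 in PJ (20.4 to 22.3). Its bounds overlapped as deposited, so this target did not share the order of CTGF and CYR61. ANKRD1 (ENSG00000148677.6; chromosome 10, 92671853 to 92681033), a nuclear ankyrin repeat protein gene best known from heart muscle, was at 0.150 FPKM (0.0647 to 0.236) in PF against 0.0512 in PJ (0 to 0.105). Its promoter, shown above, carries 2 TEAD matches. The range of the 4 targets thus ran from ANKRD1, near 0, to CYR61, the highest of the 10 genes in PJ.

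**Figure D3:**
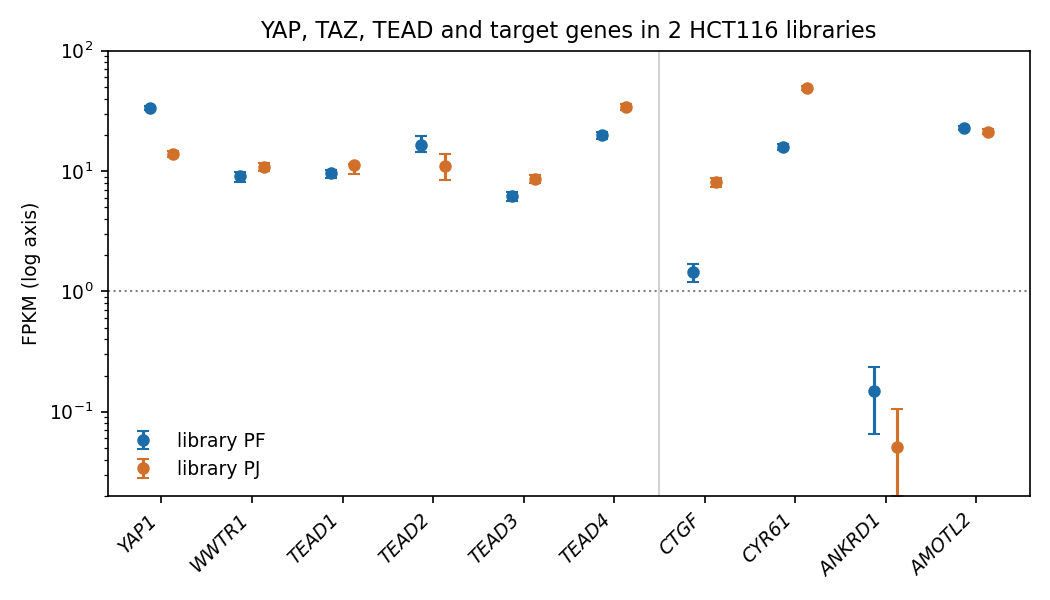
FPKM on a log axis for the 10 genes in library PF (blue) and PJ (orange); bars are the deposited 95% bounds, the dotted line marks 1 FPKM, and the lower bound of ANKRD1 in PJ is 0 and runs off the axis. YAP1 is lower in PJ (33.4 and 13.9), CTGF (1.45 and 8.06) and CYR61 (15.9 and 48.7) are higher, and ANKRD1 lies under the line in both.

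Ordered by the mean of the libraries, CYR61 came first at 32.3 ± 23.2 FPKM (SD, n = 2), followed by TEAD4 at 26.9 ± 10.1, YAP1 at 23.7 ± 13.8 and AMOTL2 at 21.8 ± 1.14. TEAD2 (13.7 ± 3.86), TEAD1 (10.4 ± 1.05) and WWTR1 (9.98 ± 1.31) came next. TEAD3 (7.39 ± 1.74), CTGF (4.76 ± 4.68) and ANKRD1 (0.101 ± 0.0698) were last. Only 3 neighbouring pairs in this order had ranges over the libraries that did not overlap: AMOTL2 above TEAD2, WWTR1 above TEAD3 and CTGF above ANKRD1. The order of the first 4 genes is therefore not fixed by these data. YAP1 led in PF, with CYR61 the fifth, whereas CYR61 led in PJ and YAP1 was the fourth.

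The library difference was also read on the log2(FPKM + 1) scale, which makes the change of low genes look smaller, over symbols whose mean reached 1 FPKM. With 1 library a side there is no replicate check, and no p-value was computed. CTGF (log2 ratio 1.89) and CYR61 (1.55) were at least 2-fold higher in PJ, 2 of the 9 genes that entered, where 10.4% of all 15736 symbols were. YAP1 (-1.20) was at least 2-fold lower, 1 of 9, where 5.22% of all symbols were. The other 6 were within 2-fold, from -0.54 for TEAD2 to 0.75 for TEAD4. With so few genes these counts describe only the genes named.

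The whole distribution was shifted towards PJ, with a median log2 ratio of 0.22 over all symbols that entered. The split of all 2-fold differences depended on it: 66.7% of them were higher in PJ as deposited and 46.2% after PJ was divided by 1.19, the median ratio of symbols that reached 1 FPKM in both. CTGF, CYR61 and YAP1 were past 2-fold in both cases, with YAP1 at -1.43 after division and CYR61 at 1.31. The ratio of WWTR1 came to 0.02, that of AMOTL2 to -0.34, and TEAD1 changed sign (0.19 as deposited, -0.04 after division).

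Bounds were apart for 7 of the 9 genes, against 62.7% of all symbols that entered. Of these, 5 were higher in PJ (WWTR1, TEAD3, TEAD4, CTGF and CYR61), against 44.5% of all symbols, and 2 were lower (YAP1 and TEAD2), against 18.2%. After PJ was divided by the median ratio, WWTR1 overlapped (8.04 to 9.77 in PF against 8.45 to 9.83 in PJ) and AMOTL2 was apart and lower in PJ (21.8 to 23.9 against 17.2 to 18.8), so that 4 were higher and 3 lower. The shares of all symbols were not computed after this division, so the 4 and 3 have no background beside them. The bounds hold no variation between cultures, and bounds apart were the common state of symbols at this level.

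Annotated rows overlapped the spans of 6 of the 10 genes, and the library kit that the labels name does not mark strand, so reads from an antisense transcript cannot be told from those of the gene. The 13 such rows were all low. The highest was CD37, at 0.790 FPKM in PF at the end of TEAD2, and none exceeded 6.64% of the level of its partner. RP11-864G5.3, antisense to YAP1, was at 0.443 FPKM in PF, WWTR1-AS1 at 0.113 in PF and 0.0603 in PJ, and RP11-69I8.3, antisense to CTGF, at 0.00108 in PF and 0.182 in PJ.

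The kinase core that restrains YAP and TAZ was expressed in both libraries. All 11 genes of this list (the MST and LATS kinases, their adaptors SAV1 and MOB1, the TAO kinases and MAP4K4) reached 1 FPKM in both libraries. Of protein-coding symbols 57.3% did. None of the 11 was 2-fold apart, where 84.4% of all symbols were within 2-fold. Bounds were apart for 3 genes higher in PJ, where 44.5% of all symbols were, and for 2 lower, where 18.2% were. The median log2 ratio was -0.02, against 0.22 over all symbols. STK3 was at 15.8 FPKM in PF against 16.1 in PJ, STK4 at 12.2 and 14.6, and the scaffold gene SAV1 at 20.2 and 19.9.

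LATS1 was at 9.37 FPKM (8.66 to 10.1) in PF against 6.51 in PJ (6.05 to 6.998). As a ratio, though not in FPKM, this was the largest difference in the kinase list. LATS2, itself a YAP target, was at 8.44 and 7.67 FPKM with overlapping bounds. Their cofactor genes MOB1A and MOB1B were at 51.3 and 9.95 FPKM in PF against 61.9 and 7.49 in PJ. MAP4K4, which can act beside the MST kinases, stood at 39.9 and 39.8 FPKM, almost equal. The TAO kinase genes, upstream of MST, ranged from TAOK3, at 4.84 and 3.91, to TAOK2, at 21.3 and 24.99.

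Upstream regulators passed the threshold in 12 of 15 cases, against 57.3% of protein-coding symbols. The protocadherin gene FAT1 was the highest at 130 FPKM in PF against 67.1 in PJ, with the polarity scaffold gene SCRIB at 83.6 and 87.8 and RASSF1, a gene for an MST-binding protein, at 18.5 and 24.8; each of these estimates lay outside its own bounds in at least 1 library. NF2, the gene of the tumour suppressor merlin, was at 14.5 FPKM in PF against 23.3 in PJ. Of the 13 genes whose mean reached 1 FPKM, 11 were within 2-fold, against 84.4% of all symbols. Only WTIP, a LIM protein gene whose family restrains LATS, was 2-fold higher in PJ (1.12 and 3.90), where 10.4% of all symbols were. Only WWC3, a relative of KIBRA, was 2-fold lower (4.35 and 0.106), where 5.22% were. A count of 1 in 13 is near these shares. The PF estimate of WWC3 lay above its upper bound of 4.22. FAT4, at 0.137 and 0.0651 FPKM, had the lowest mean. After division by the median ratio FAT1 was also past 2-fold, at -1.19, so that 2 genes were lower, where 7.24% of all symbols were.

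**Figure D4:**
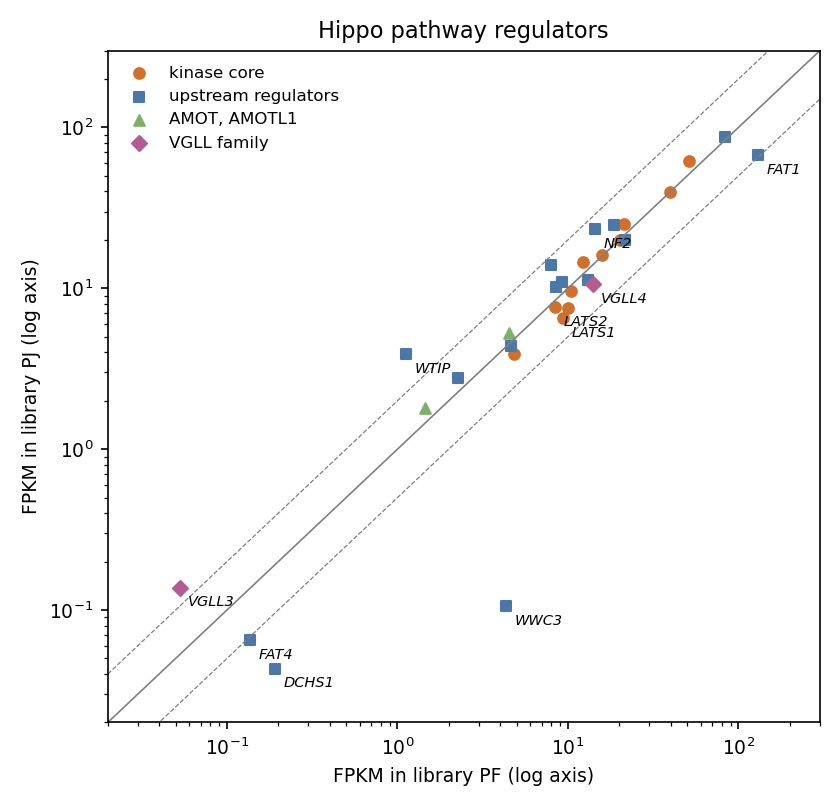
FPKM in PF against FPKM in PJ, both on log axes, for the kinase core, upstream regulators, AMOT and AMOTL1, and the VGLL genes; the solid line marks equal levels and the dashed lines a 2-fold ratio, and VGLL1 and VGLL2, at or near 0, lie off the axes. Kinase genes follow the line of equality, while WWC3 (4.35 and 0.106) and WTIP (1.12 and 3.90) lie outside the dashed lines. So do DCHS1 (0.192 and 0.0432), FAT4 (0.137 and 0.0651) and VGLL3 (0.0529 and 0.138), all under 1 FPKM in both libraries.

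Of the other angiomotins, which hold YAP at junctions and in the cytoplasm, AMOT was at 1.45 FPKM in PF against 1.81 in PJ and AMOTL1 at 4.53 and 5.30, both under AMOTL2. The VGLL proteins bind TEAD in place of YAP. VGLL4, known as a repressor of TEAD targets, was at 14.0 FPKM (12.2 to 16.3) in PF against 10.7 in PJ (9.33 to 12.6). The other VGLL genes were under 1 FPKM in both libraries: VGLL3 at 0.0529 and 0.138, VGLL1 at 0.00155 in PF and lower in PJ, and VGLL2 listed at 0. Genes for the retention and breakdown of YAP and TAZ were all expressed, 8 of 8, against 57.3% of protein-coding symbols. The 14-3-3 genes YWHAE (356 and 551 FPKM), YWHAZ (381 and 490) and YWHAB (113 and 123) led, and BTRC, which encodes the ubiquitin ligase subunit beta-TrCP that recognises phosphorylated YAP and TAZ, was more than 2-fold higher in PJ at 4.25 and 17.7 FPKM. BTRC was 1 of 8 that were 2-fold higher, near the 10.4% of all symbols, and its PJ estimate lay above its upper bound of 16.9.

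A wider signature of YAP and TAZ targets did not move one way. Of its 18 genes, which leave out the 4 targets above, 13 reached 1 FPKM in both libraries, where 57.3% of protein-coding symbols did. These 13 entered the comparison. In PJ 5 were at least 2-fold higher (10.4% of all symbols were), 2 at least 2-fold lower (5.22%) and 6 within 2-fold. Their median log2 ratio was -0.01, against 0.22 over all symbols.

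Among the higher genes F3, for the coagulation starter tissue factor, was at 9.84 FPKM (8.97 to 10.7) in PF against 61.7 in PJ (59.9 to 64.5), and the receptor tyrosine kinase gene AXL at 5.71 (5.28 to 6.15) and 30.1 (28.97 to 31.4). FJX1 was at 4.39 and 15.7 FPKM, NT5E, the gene of the surface enzyme CD73, at 4.04 and 12.5, and the Arf GTPase regulator gene ASAP1 at 17.8 and 41.7. On the log2(FPKM + 1) scale F3 and AXL had ratios of 2.53 and 2.21, larger than the 1.89 of CTGF. The order of AXL and CTGF depends on the pseudocount. Without it the PJ to PF ratio was 6.27 for F3, 5.55 for CTGF and 5.26 for AXL. After division by the median ratio ASAP1 alone of the 5 was under 2-fold, at 0.94. The lower genes were MYOF, for a membrane repair protein, at 54.1 FPKM in PF against 23.4 in PJ, and GADD45A, also a known p53 target, at 97.6 and 40.8.

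Of the 18 genes of the signature, 5 were under 1 FPKM in both libraries, among them FOXF2, listed at 0 in PF and at 0.0115 FPKM in PJ. RefSeq promoter windows were matched for 13 of the 18 genes, and the TEAD motif occurred in 6 of their 14 windows, those of AXL, FOXF2, LATS2, NUAK2, PTPN14 and TGFB2, against 14.0% of all 35116 windows. This share too is no independent test, since the signature lists known targets. Genes with the motif thus included AXL, 5.26 times higher in PJ, and NUAK2, lower in PJ with bounds apart (2.39 and 1.18 FPKM). LATS2 and PTPN14 had overlapping bounds, TGFB2 was under 1 FPKM in both libraries, and FOXF2 was near 0 in both.

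Genes tied to YAP-dependent repair of the intestinal epithelium included some with the opposite order to CTGF and CYR61. Of 7 genes, 5 reached 1 FPKM in both libraries, where 57.3% of protein-coding symbols did. Among these 5, 3 were at least 2-fold lower in PJ (5.22% of all symbols were) and none at least 2-fold higher (10.4%). The epidermal growth factor family ligand genes EREG and AREG were at 95.2 and 72.5 FPKM in PF against 14.7 and 13.9 in PJ, and MSLN, the mesothelin gene, at 14.6 and 2.58. ANXA1 (annexin A1) and CLU (clusterin), the most abundant of the list, were at 209 and 171 FPKM in PF against 300 and 197 in PJ, within 2-fold. IL33 was at 0.000200 and 0.0302 FPKM. EREG, AREG and CLU have other known regulators, and whether YAP set any of these levels was not measured.

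**Figure D5:**
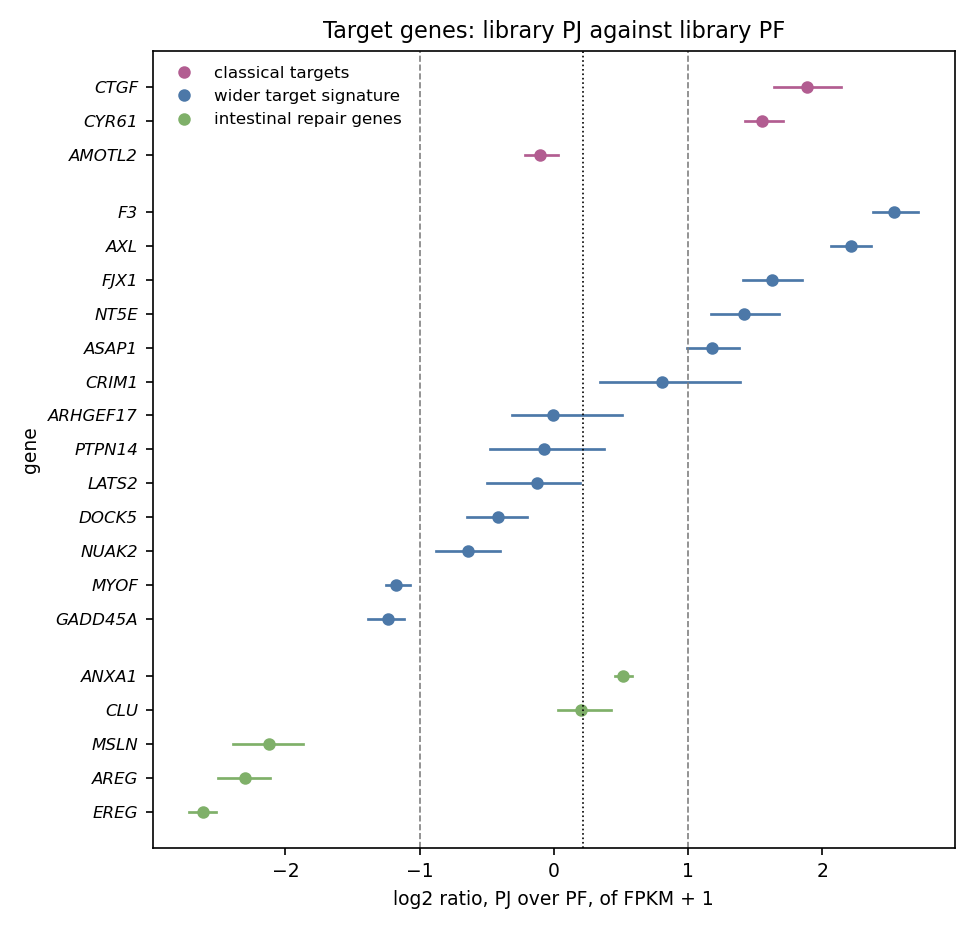
Log2 ratio of PJ over PF of FPKM + 1 for the target genes whose mean reached 1 FPKM; points are estimates, bars run between the extremes that the deposited 95% bounds allow, dashed lines mark 2-fold and the dotted line the median of all symbols (0.22). CTGF, CYR61, F3 and AXL lie to the right, EREG, AREG and MSLN to the left, and AMOTL2 lies near 0.

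CTGF and CYR61 are also targets of serum response factor and its actin-regulated coactivators, so that list was read beside them. Of 12 genes 10 reached 1 FPKM in both libraries, where 57.3% of protein-coding symbols did, and entered the comparison. Among these 10, none was 2-fold higher in PJ (10.4% of all symbols were). Only 1 was 2-fold lower (5.22%), the smooth muscle gene TAGLN at 10.5 and 4.66 FPKM. A count of 1 in 10 is near these shares. The median log2 ratio of the 10 was 0.38, against 0.22 over all symbols. FLNA (filamin A) was at 113 and 205 FPKM, the calponin gene CNN2 at 84.7 and 147, and the myosin light chain gene MYL9 at 37.2 and 57.4, all higher in PJ but within 2-fold; the FLNA and CNN2 estimates lay outside their own bounds. CNN1 had the lowest mean, at 0.0151 and 1.16. With its mean under 1 FPKM it did not enter the 2-fold count, though its log2 ratio was 1.09, with bounds apart.

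Markers of cell types were read to check the label and because CTGF, CYR61 and ANKRD1 are abundant in stroma and muscle. Of 8 epithelial markers 7 reached 1 FPKM in both libraries; VIL1 (villin), at 0.159 and 0.314 FPKM, was the exception. Their summed level was 1564 FPKM in PF against 917 in PJ, and 803 against 638 without KRT8, whose PF estimate lay outside its own bounds. KRT8 (760 and 280), CLDN4 (33.3 and 11.3) and CDH1 (21.9 and 1.80) were at least 2-fold lower in PJ, the library with lower YAP1 and higher CTGF and CYR61. These were 3 of the 7 markers that entered, where 5.22% of all symbols were. EPCAM (213 and 143), KRT18 (216 and 147) and CDX2 (12.3 and 9.32) were lower in PJ within 2-fold. Bounds were apart and lower in PJ for 6 of the 7, where 18.2% of all symbols were. The part of these marker differences in the YAP1, CTGF and CYR61 results was not tested. KRT19 (306 and 325) was higher in PJ as deposited, with bounds apart, and its log2 ratio came to -0.16 after division by the median ratio. Fibroblast markers summed to 7.82 FPKM in PF against 4.21 in PJ, with 1 of 7 past 1 FPKM in both (COL1A1, at 7.28 and 2.93), and LUM was listed at 0 in PJ. Without COL1A1 the sum of the other 6 ran the other way, at 0.544 and 1.28 FPKM, with PDGFRB at 0.0887 and 0.689 and COL3A1 at 0.0783 and 0.331, both with overlapping bounds. Endothelial markers (0 of 6 passed; summed 0.508 and 0.527 FPKM), immune markers (0 of 5; 0.961 and 0.868) and muscle markers (0 of 6; 1.26 and 0.125) were at or near 0.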

How the data were processed

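Each library came as 1 table, deposited by the authors, of FPKM, 95% bounds below and above it and a status for 56586 genes, per the file headers. TopHat2 2.0.8b, TopHat, Cufflinks and hg19 are listed in the submitters' processing notes; the version of Cufflinks and the annotation are not given in the sources used. Per the labels' protocols, RNA was taken with TRIzol and 1 µg was used for Illumina TruSeq V2 libraries. No counts were given and the absolute depth is unknown; precision rests on the deposited bounds. For genes under 200 bp listed at 0, the upper bound times the span in PJ was 1.04 times that in PF.

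Status FAIL (23 genes in PF, 20 in PJ) was treated as missing, which touched none of the 10 genes. Rows sharing a symbol were summed. Starts of the deposited coordinates are counted from 1. Ratios used a pseudocount of 1 FPKM, and 2-fold counts used symbols whose mean reached 1 FPKM. Gene types came from GENCODE release 29 by identifier (88.7% matched). Promoters and gene synonyms came from RefSeq tables on GRCh38.p14; motifs were searched on both strands. The protein comparison planned was not made.

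The genes, lists and settings were chosen with earlier results of these data known. Of the longer lists, the 3 highest means, the lowest, and up to 3 of the largest ratios past 2-fold in each direction were named. NT5E, ASAP1, NF2, NUAK2, PTPN14, TGFB2 and the marker genes were named after their values were seen. The 2-fold count was tested on simulated data whose planted changes were all well above 2-fold. That test does not show how the count behaves for changes near 2-fold. Alternatives were other thresholds, pseudocounts, scalings and single libraries. Python 3.11.15, numpy 2.4.6, pandas 2.3.3 and matplotlib 3.10.9 were used.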

Additional observations from a re-analysis of the deposited data

How the results depend on the processing

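For the 10 genes, the count of 9 expressed stayed within 1.5 times at thresholds of 0.5 and 5 FPKM, with the lower bound in place of the estimate, with FAIL as listed and in each library alone. The counts of 2 at least 2-fold higher and 1 at least 2-fold lower in PJ were 2 and 1 with pseudocounts of 0.1 and 0.5, under 3 scalings, with the highest row of a symbol and with no filter on low values. The shares of all symbols beside them did move. The share higher ran from 6.18% (upper quartile scaling) to 14.5% (pseudocount 0.1). The share lower ran from 5.22% (as deposited) to 7.27% (upper quartile scaling). With no filter these shares were not computed. At a threshold of 5 FPKM the wider signature had 8 expressed genes in place of 13 and the pair AMOT and AMOTL1 had 0 in place of 2. Dividing by the median ratio, or scaling by the upper quartile, gave 2 upstream regulators lower in PJ in place of 1. Of all symbols 7.24% and 7.27% were lower under these settings. Across settings the log2 ratio ran from 1.67 to 2.40 for CTGF, from 1.31 to 1.61 for CYR61 and from -1.44 to -1.20 for YAP1. After division by the median ratio, an alternative chosen after seeing the data, 7 genes again had bounds apart, but WWTR1 left this group and AMOTL2 entered it, which made 4 higher and 3 lower in PJ in place of 5 and 2. Bounds apart were not counted over all symbols after the division. A 2-fold count needs both libraries, so leaving a library out gave no value for it. No paired analysis was possible because the libraries form a single group. The absolute depth is unknown, and the bounds of ANKRD1 reach 0 in PJ.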

Other observations

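The closest relatives of the classical targets were mostly near 0. Of the other 4 CCN genes, which encode matrix proteins related to CTGF and CYR61, none reached 1 FPKM in both: NOV was at 1.49 FPKM (1.23 to 1.75) in PF against 0.199 in PJ (0.0845 to 0.315), the opposite order to CTGF and CYR61, WISP3 at 0.0616 and 0.0247, WISP2 near 0 in PF and at 0.0289 in PJ, and WISP1 listed at 0 in PJ. CYR61 was thus the most abundant of the 6 CCN genes in both libraries. Of the muscle ankyrin repeat genes related to ANKRD1, ANKRD23 was higher than ANKRD1, at 2.28 and 2.07 FPKM, and ANKRD2 was at 0.234 and 0.167.

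The symbols with levels most like those of YAP1, by Euclidean distance in log2(FPKM + 1) over the 2 libraries, were TFDP2 (34.5 FPKM in PF against 13.7 in PJ; distance 0.0477), AC009238.6 (33.8 and 14.6) and ESPN (32.3 and 14.5). Those nearest to CYR61 were UQCC (16.1 and 47.3; distance 0.0407), OIP5 (16.8 and 48.1) and MINA (16.3 and 46.2). Within a distance of 0.25 lay 33 symbols for YAP1 and 29 for CYR61 among 51609, so 2 libraries single out no gene.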
